A study of Arabidopsis thaliana with 9 samples.

Results

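The 10 genes described here make very-long-chain fatty acids or turn them into cuticular wax in *Arabidopsis thaliana*, and they were taken by gene identifier from the 37336 genes counted in an mRNA-seq experiment on the *zmp* mutants. They are *KCS1* (AT1G01120), *KCS2* (AT1G04220), *KCS6* (AT1G68530), *KCS20* (AT5G43760), *CER1* (AT1G02205), *CER2* (AT4G24510), *CER3* (AT5G57800), *CER4* (AT4G33790), *CER10* (AT3G55360) and *WSD1* (AT5G37300). The set was put together after *KCS1* had been seen to be lower in both mutants, so the values of these genes in the mutants against WT are a description, and no call of a member in those contrasts is read as a result. The mutants against each other, and pathway genes outside the set, were tested.

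The mRNA-seq compared *zmp-2* (T-DNA line SALK_008955) and *zmp-1* (T-DNA line SALK_066029) with WT, all in ecotype Col-0 and with 3 biological replicates per genotype. *ZMP* (AT5G63700) is the gene with the insertions, and its protein is a partner of RNA polymerase IV, which makes the precursors of small interfering RNAs. Per the labels the RNA came from seedlings 12 days old, grown at 23 °C with 16 h of light and 8 h of dark. For each polyA library 5 ug of total RNA was used. The study's methods for these libraries name inflorescences as the tissue, whereas the legend to its *ZMP* transcript tracks names seedlings, as the labels do. No rescued line is among these libraries, each allele is a single insertion line, and in bulk tissue fewer epidermal cells and less RNA per cell cannot be told apart.

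The cuticle covers the shoot epidermis, and its wax is built from fatty acids that are lengthened in the endoplasmic reticulum by the fatty acid elongase. In each cycle a 3-ketoacyl-CoA synthase (KCS) condenses the acyl chain with malonyl-CoA and sets which chain lengths are used, and 3 further enzymes, the last of them the enoyl-CoA reductase *CER10*, complete the cycle. The long acyl chains become alkanes through *CER1* and *CER3*, or primary alcohols through *CER4*, which *WSD1* joins to fatty acids as wax esters.

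The libraries held 5815211 to 25182435 counts, of which 55.1 to 66.3% fell on chloroplast genes, and 18109 genes passed the filter on low counts and were tested. Of the 10 genes, 7 passed and 3 (*KCS2*, *CER4* and *WSD1*) did not. *ZMP* had 1.502, 1.002 and 1.325 TMM-scaled RPM in replicates 1, 2 and 3 of the *zmp-2* mutant, 2.14, 3.01 and 2.83 in *zmp-1* and 5.53, 6.76 and 7.48 in WT, so every mutant library lay below every WT library. TMM-scaled RPM is the read count scaled to the library size after edgeR's TMM factor, and it is used below for 1 gene across libraries. WT replicate 2 stood apart. The 5 root endodermis markers *CASP1* to *CASP5*, which build the Casparian strip, summed to 8.46 TMM-scaled RPM in it and to 0.819 to 1.33 in *zmp-2* libraries, 0.880 to 1.98 in *zmp-1* and 0.667 and 0.909 in the other WT libraries. All 5 were detected in WT replicate 2 and 0 to 2 of 5 were at 0 elsewhere. The 5 epidermis markers (*ATML1*, *PDF1*, *PDF2*, *ACR4* and *LTP1*) were detected in every library and summed to 339 to 423 TMM-scaled RPM in *zmp-2* libraries, 287 to 403 in *zmp-1* and 289 to 388 in WT, with the lowest WT sum in replicate 2. Of 5 floral organ markers 2 or 3 were at 0 in each library, *AG* in all 9, and their sum did not exceed 3.26 TMM-scaled RPM. The results below are therefore given with and without WT replicate 2 where it matters.

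*KCS6* was the most abundant of the 10 transcripts in each genotype, and *KCS2*, *CER4* and *WSD1* were the least abundant. Between genes, levels are compared in RPKM, the read count scaled to the exon length and to the counts on nuclear genes. In WT *KCS6* stood at 112 ± 15.8 RPKM (SD, n = 3), *CER3* at 41.4 ± 0.819, *KCS1* at 37.7 ± 7.92 and *KCS20* at 25.4 ± 2.56. Lower down came *CER2* at 14.0 ± 3.81 RPKM, *CER10* at 9.72 ± 2.83 and *CER1* at 7.15 ± 2.58. The WT means of *KCS2*, *WSD1* and *CER4* were below 0.28 RPKM. The WT libraries of *CER3* and *KCS1*, of *CER2* and *CER10*, and of *CER10* and *CER1* overlapped, as did the lowest 3 genes, so these neighbours did not differ beyond their spread. In *zmp-2*, *CER1* averaged 14.7 ± 3.22 RPKM, above *CER10* at 9.33 ± 0.773, while *KCS1* averaged 18.0 ± 1.89 and *CER3* 38.5 ± 0.779. In *zmp-1* *CER1* ranged over 7.59 to 12.8 RPKM and overlapped with *CER10* at 8.996 to 9.534.

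*KCS1*, a condensing enzyme with broad chain-length use in shoot wax, was lower in both mutants. It is a gene of 1 exon on the minus strand of chromosome 1 (chr1:57164-59215, TAIR10.1), and no other annotated gene overlaps it. *KCS1* had 12.1, 14.5 and 13.7 TMM-scaled RPM in replicates 1, 2 and 3 of the *zmp-2* mutant, 16.3, 15.2 and 21.4 in *zmp-1*, and 30.6, 20.7 and 34.7 in WT. All *zmp-2* libraries lay below all WT libraries, whereas *zmp-1* replicate 3 exceeded WT replicate 2. The log2 fold change was −1.09 in *zmp-2* against WT (SE 0.208, 95% confidence interval −1.54 to −0.63, 2.13-fold lower) and −0.70 in *zmp-1* against WT (SE 0.209, interval −1.15 to −0.24, 1.62-fold lower). Both values use the same WT libraries, and the intervals are for the single gene. Without WT replicate 2 they became −1.28 (−1.69 to −0.88) in *zmp-2* and −0.89 (−1.30 to −0.48) in *zmp-1*, and all 6 mutant libraries were then below the remaining WT libraries, at 12.1 to 21.4 against 30.6 and 34.7 TMM-scaled RPM. How common this order was among all genes without WT replicate 2 was not counted, so nothing is read from it. The part of the root markers of WT replicate 2 in its lower *KCS1* value was not tested.

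*CER1*, which with *CER3* forms the alkanes that dominate leaf and stem wax, went the other way in *zmp-2*. The gene has 10 exons on the plus strand (chr1:418416-422579). Its level was 16.5, 23.7 and 17.1 TMM-scaled RPM in *zmp-2* libraries, 12.2, 9.54 and 16.7 in *zmp-1*, and 8.20, 6.56 and 13.8 in WT. The *zmp-2* libraries were all above those of WT, and the *zmp-1* libraries overlapped with WT. The log2 fold change was 1.01 in *zmp-2* (SE 0.286, interval 0.39 to 1.64, 2.02-fold higher) and 0.44 in *zmp-1* (SE 0.292, interval −0.20 to 1.08). WT replicate 3 was the highest WT library, and the *zmp-2* value was 1.38 without it and 0.79 without WT replicate 2.

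The promoters of *KCS1* and *CER1* are shown because these were the genes with the largest fold changes of the set, in opposite directions. Each sequence is the 250 bases before the annotated start, read 5′ to 3′ on the gene's strand from the RefSeq genome TAIR10.1 (chr1:59216-59465, minus strand, for *KCS1* and chr1:418166-418415, plus strand, for *CER1*), and capitals mark a TATA box.
KCS1: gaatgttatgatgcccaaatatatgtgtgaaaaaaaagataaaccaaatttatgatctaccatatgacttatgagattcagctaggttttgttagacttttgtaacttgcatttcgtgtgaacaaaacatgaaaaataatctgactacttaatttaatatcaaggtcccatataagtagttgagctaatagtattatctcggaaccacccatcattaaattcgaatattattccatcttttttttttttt
CER1: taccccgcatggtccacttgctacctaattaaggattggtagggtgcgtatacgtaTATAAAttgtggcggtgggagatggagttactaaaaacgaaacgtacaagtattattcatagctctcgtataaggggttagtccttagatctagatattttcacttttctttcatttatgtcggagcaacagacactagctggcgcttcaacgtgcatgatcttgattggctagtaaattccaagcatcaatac
Both strands were searched. The TATA box was spelled TATAAA, the MYB site TAACTA or otherwise TAACTG, the L1 box TAAATGCA or otherwise TAAATGTA, the G-box CACGTG and the GCC box GCCGCC, none of which contains another. The *CER1* window held 1 TATA box, which began 194 bases before the start, and the *KCS1* window held none of these motifs. Among the same windows of 27443 genes, 47.3% held a TATA box, 26.9% a MYB site, 4.5% an L1 box, 6.5% a G-box and 1.9% a GCC box. Of the other members, *KCS6* and *CER2* held a MYB site, and no member held an L1 box, a G-box or a GCC box.

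**Figure D1:**
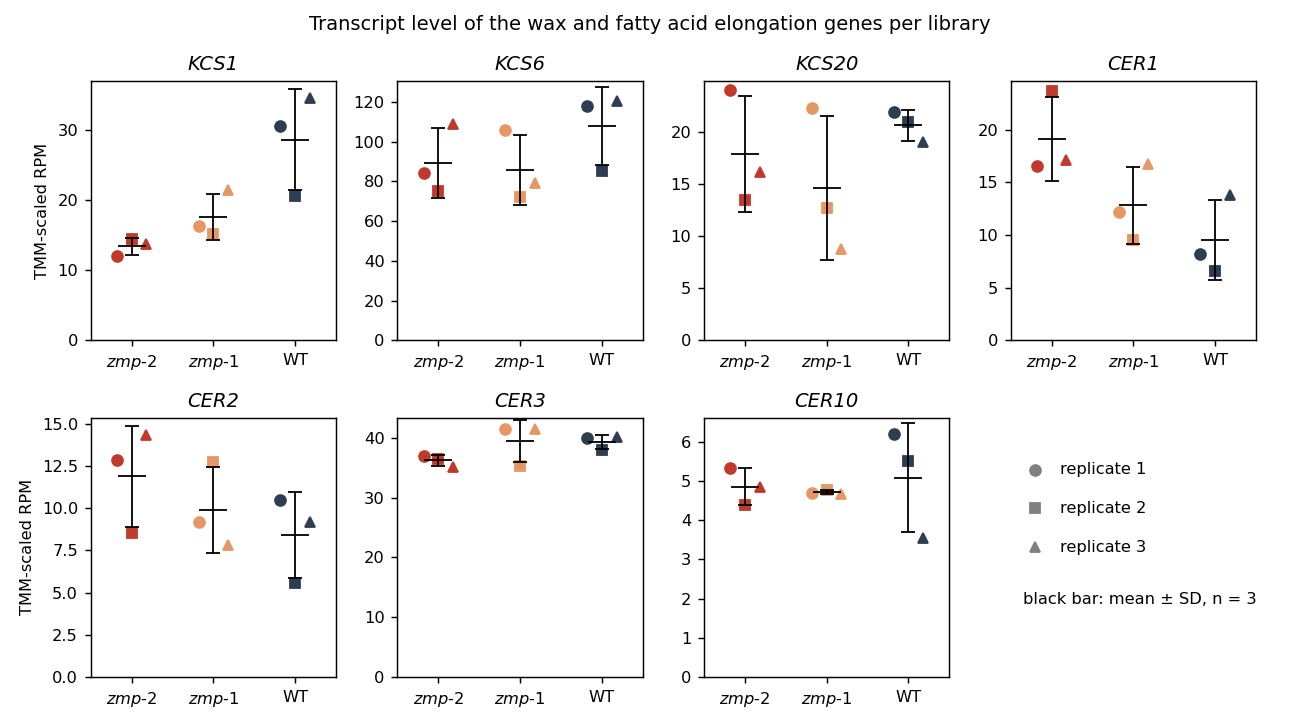
Level of each tested gene in TMM-scaled RPM (y axis) in *zmp-2*, *zmp-1* and WT (x axis), with 1 point per library, its shape giving the replicate number, and a black bar for the mean ± SD (n = 3). *KCS1* reached 12.1 to 14.5 in *zmp-2* against 20.7 to 34.7 in WT, *CER1* 16.5 to 23.7 in *zmp-2* against 6.56 to 13.8 in WT, and *CER3* stayed between 35.2 and 41.5 in all libraries.

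Within single libraries the *KCS1* transcript stood in a different proportion to *CER1* in each genotype. The ratio of their RPKM was 1.28, 1.07 and 1.41 in *zmp-2* libraries, 2.35, 2.79 and 2.24 in *zmp-1*, and 6.54, 5.52 and 4.38 in WT. The ranges of the 3 genotypes did not overlap, and a ratio within a library does not depend on how the libraries are scaled. This ratio was chosen after the values of both genes were seen, and it rests on the same contrasts. It sets the gene on which the set was chosen against the member that rose most in *zmp-2*. That the ranges lay apart is therefore a description and no independent evidence. *KCS1* against *KCS6* was less even, at 0.183, 0.246 and 0.160 in *zmp-2* libraries, 0.196, 0.268 and 0.344 in *zmp-1* and 0.330, 0.308 and 0.366 in WT, so that *zmp-2* lay below WT and *zmp-1* overlapped with WT.

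The other condensing enzymes of the set showed no separation of the genotypes. *KCS6* (chr1:25712414-25715024, minus strand), the main condensing enzyme of epidermal wax, had 84.1, 75.0 and 108.9 TMM-scaled RPM in *zmp-2* libraries, 105.9, 72.3 and 79.2 in *zmp-1*, and 118.1, 85.3 and 120.3 in WT. Its groups overlapped through WT replicate 2 alone, since without that library all mutant libraries were below the WT ones. How many of all genes were so placed without that library was not counted, so nothing is read from this order. The log2 fold change was −0.27 in *zmp-2* (interval −0.73 to 0.19) and −0.33 in *zmp-1* (interval −0.79 to 0.14), and −0.42 (−0.89 to 0.05) and −0.47 (−0.94 to 0.00) in the same order without WT replicate 2. *KCS20* (chr5:17585523-17588733, plus strand), which acts in shoot wax and root suberin, had 24.0, 13.4 and 16.1 TMM-scaled RPM in *zmp-2* libraries, 22.3, 12.7 and 8.79 in *zmp-1* and 21.9, 20.9 and 19.0 in WT. The mutant libraries of *KCS20* spread widely around the narrow WT range, with replicate 1 highest in both mutants. Its log2 fold change was −0.21 in *zmp-2* (interval −0.86 to 0.45) and −0.46 in *zmp-1* (interval −1.12 to 0.21).

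*KCS2*, the closest relative of *KCS20* in the set and a partner of it in suberin and wax, was barely detected. It had 2, 1 and 0 counts in *zmp-2* libraries, 1, 2 and 1 counts in *zmp-1*, and 3, 5 and 0 counts in WT, 15 in all. Scaled to library size, its highest level was 0.354 TMM-scaled RPM in *zmp-1* replicate 2, beside 0.328 in WT replicate 2. These values are at the limit of detection, 3 counts or 0.126 to 0.530 TMM-scaled RPM per library, and show no difference between genotypes. The *KCS2* value is also uncertain because 61.5% of its exon bases lie under the antisense long noncoding RNA AT1G04247 on the other strand (*KCS2* at chr1:1119699-1122786, minus strand), and the strand that was counted is not stated in the sources used here. AT1G04247 itself had 0, 3 and 0 counts in *zmp-2* libraries, 0, 0 and 1 in *zmp-1* and 0, 0 and 1 in WT.

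The coding sequences of *KCS2* and *KCS20* were identical at 83.8% of 1551 aligned bases, with 53 bases as the longest identical run, against 61.3% for *KCS1* and *KCS20* and 60.6% for *KCS6* and *KCS20*. No member had a near-identical copy (95% identity over 50% of the transcript) by blastn. The 83 bases around the longest run show how far reads of *KCS2* and *KCS20* can be told apart where they are most alike, with *KCS1* and *KCS6* at the aligned bases and capitals where a base differs from *KCS20*. They lie within coding exons at chr5:17588280-17588362 (*KCS20*, plus strand), chr1:1119998-1120080 (*KCS2*, minus strand), chr1:57495-57577 (*KCS1*, minus strand) and chr1:25712990-25713072 (*KCS6*, minus strand) of TAIR10.1.
KCS20: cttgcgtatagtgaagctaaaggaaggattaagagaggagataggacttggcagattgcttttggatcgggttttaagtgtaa
KCS2: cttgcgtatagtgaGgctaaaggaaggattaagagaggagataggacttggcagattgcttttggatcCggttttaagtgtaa
KCS1: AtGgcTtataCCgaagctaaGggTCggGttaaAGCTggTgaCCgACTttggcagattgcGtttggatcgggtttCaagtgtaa
KCS6: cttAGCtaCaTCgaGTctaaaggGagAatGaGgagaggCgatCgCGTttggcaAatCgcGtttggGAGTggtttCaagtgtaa
In this stretch, chosen for the longest run shared by *KCS2* and *KCS20*, *KCS2* differed from *KCS20* at 2 bases, *KCS1* at 21 and *KCS6* at 25.

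*CER2*, which lets the elongase make the longest chains, and *CER10*, the enoyl-CoA reductase of every elongation cycle, had overlapping groups. *CER2* (chr4:12660687-12662656, plus strand) had 12.8, 8.56 and 14.3 TMM-scaled RPM in *zmp-2* libraries, 9.17, 12.7 and 7.79 in *zmp-1* and 10.5, 5.58 and 9.19 in WT. Its log2 fold change was 0.51 in *zmp-2* (interval −0.09 to 1.12) and 0.23 in *zmp-1* (interval −0.39 to 0.85), and fell to 0.28 and −0.01 without WT replicate 2, where *CER2* was lowest. Of its exon bases 19.4% overlap the long noncoding RNA AT4G07275 and 5.9% overlap *ATR1*, both on the other strand. *CER10* (chr3:20520930-20523098, minus strand) had 5.33, 4.39 and 4.84 TMM-scaled RPM in *zmp-2* libraries, 4.69, 4.77 and 4.68 in *zmp-1* and 6.20, 5.51 and 3.54 in WT. The WT libraries enclosed all mutant libraries, and the log2 fold changes of −0.07 in *zmp-2* (interval −0.57 to 0.43) and −0.11 in *zmp-1* (interval −0.63 to 0.40) changed sign without WT replicate 1, to 0.09 and 0.04.

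*CER3*, the partner of *CER1* in alkane formation, was the steadiest gene of the set. *CER3* (chr5:23420184-23424117, plus strand, 11 exons) had 37.0, 36.5 and 35.2 TMM-scaled RPM in *zmp-2* libraries, 41.5, 35.4 and 41.5 in *zmp-1* and 40.0, 38.1 and 40.1 in WT. Its SD within genotypes was 0.082 on the log2(RPM + 1) scale, at the 0.9th percentile of all genes tested, whose median was 0.255. *KCS20*, *CER1* and *CER2* were among the more variable genes, with SDs of 0.437, 0.395 and 0.372 and percentiles of 88.7, 84.3 and 81.0, while *KCS1* had 0.269 (54.8). The *zmp-2* libraries of *CER3* were all below WT, by a log2 fold change of only −0.12 (interval −0.41 to 0.17), and *zmp-1* differed by 0.01 (interval −0.29 to 0.30), which became −0.11 when libraries were scaled by size alone. Within libraries *CER1* was thus 0.322, 0.468 and 0.350 of *CER3* by RPKM in *zmp-2* libraries, 0.212, 0.195 and 0.290 in *zmp-1* and 0.148, 0.124 and 0.249 in WT.

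The alcohol branch was hardly expressed. *CER4* (chr4:16204096-16207956, minus strand), the fatty acyl-CoA reductase, had 2, 1 and 2 counts in *zmp-2* libraries, 5, 4 and 2 in *zmp-1* and 0, 3 and 0 in WT, 19 in all. *WSD1* (chr5:14767426-14770396, plus strand), the wax ester synthase, had 5, 7 and 3 counts in *zmp-2* libraries, 4, 0 and 5 in *zmp-1* and 2, 1 and 2 in WT, 29 in all. Neither gene passed the filter, and at this depth no difference could be read from either.

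**Figure D2:**
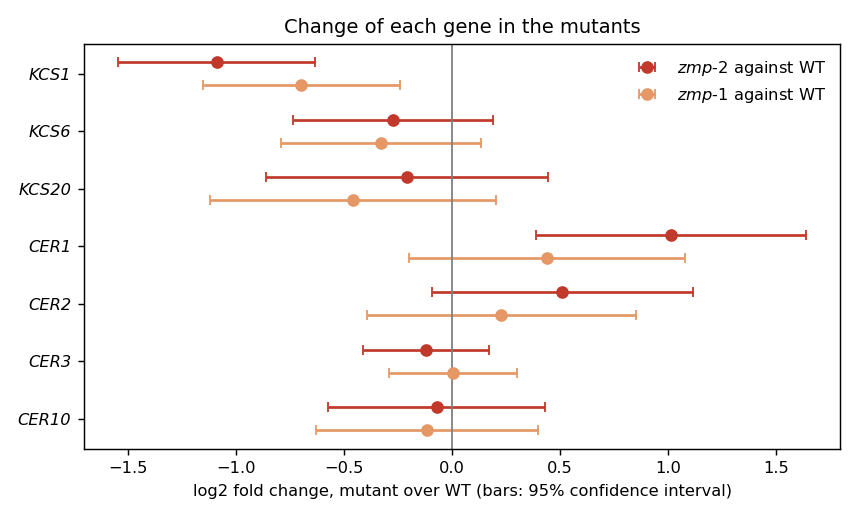
Fold change of the 7 tested genes (y axis) on the log2 scale (x axis, mutant over WT), with dark red for *zmp-2* and orange for *zmp-1*, and bars for the 95% confidence interval of the single gene. The *KCS1* intervals of both mutants (−1.54 to −0.63 and −1.15 to −0.24) and the *CER1* interval of *zmp-2* (0.39 to 1.64) leave out 0, and those of all other genes include it. Leaving out 0 matches an unadjusted p under 0.05 in edgeR's test, met by 12.1% of all genes in *zmp-2* and 9.16% in *zmp-1*. The set was chosen after *KCS1* had been seen to be lower in both mutants, so nothing is read from these intervals.

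Set against all genes, the 7 tested members had a median log2 fold change of −0.12 in *zmp-2* and −0.11 in *zmp-1*, where all genes had −0.02 and −0.01. With edgeR's quasi-likelihood test and Benjamini-Hochberg adjustment over all genes tested, 0 of the 7 were called at an adjusted p of 0.05 in *zmp-2* against WT, where 0.177% of all genes were called, and 0 of the 7 in *zmp-1* against WT, where 0.0442% were called. At an unadjusted p under 0.05, 2 of 7 (*KCS1* and *CER1*) passed in *zmp-2*, beside 12.1% of all genes, and 1 of 7 (*KCS1*) in *zmp-1*, beside 9.16%. DESeq2 called 1 of 7 in *zmp-2* (*KCS1*), beside 1.20% of all genes, and 0 of 7 in *zmp-1*, beside 0.607%. Libraries of *zmp-2* and WT did not overlap for 3 of 7 and for 16.3% of all genes, with 1 of 7 higher (*CER1*, beside 8.74%) and 2 of 7 lower (*KCS1* and *CER3*, beside 7.52%), and those of *zmp-1* and WT for 0 of 7 and 12.6% of all genes. As the set was chosen on these contrasts, nothing is read from these counts.

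The comparison of the mutants with each other was not used in choosing the set, although it shares the mutant libraries. *KCS1* was lower in *zmp-2* than in *zmp-1*, with libraries that did not overlap, but by a log2 fold change of −0.39 (SE 0.211, interval −0.85 to 0.07) that did not pass edgeR's test (adjusted p = 0.9998). *CER1* differed by 0.57 (SE 0.284, interval −0.05 to 1.20, edgeR adjusted p = 0.9998), with overlapping libraries. The other 5 tested genes lay between −0.12 (*CER3*) and 0.28 (*CER2*). By edgeR 0 of 7 were called, 0 of 7 had an unadjusted p under 0.05 and DESeq2 called 0, where edgeR called 0.0221% of all genes, 4.36% had an unadjusted p under 0.05 and DESeq2 called 0.0884%. The *zmp-2* libraries were all lower for 1 of 7 members (*KCS1*) and for 6.09% of all genes, and the groups were apart in either direction for 11.9% of all genes.

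Within the *KCS* family the share of *KCS1* was lower in the mutants and that of *KCS16* higher. The 21 *KCS* genes were summed by RPKM in each library, and *KCS1* made up 3.02 ± 0.50% of the sum in *zmp-2* libraries, 3.75 ± 0.93% in *zmp-1* and 5.69 ± 1.32% in WT (SD, n = 3 each), with *zmp-1* overlapping WT. *KCS16*, which makes the longest acyl chains in the leaf epidermis and trichomes, made up 4.61 ± 0.88% in *zmp-2* libraries, 4.40 ± 0.58% in *zmp-1* and 2.54 ± 0.39% in WT. Its level was 22.3, 22.8 and 17.9 TMM-scaled RPM in *zmp-2* libraries, 22.8, 18.4 and 23.0 in *zmp-1*, and 12.5, 12.9 and 13.3 in WT, so all 6 mutant libraries were above WT, as for 2.96% of all genes. Its log2 fold change of 0.70 in *zmp-2* and 0.74 in *zmp-1* did not pass edgeR's test (adjusted p = 0.1435 and 0.2517), while DESeq2 called it in both (adjusted p = 0.03769 and 0.04416). The largest shares belonged to *KCS8*, *KCS10* and *KCS6*, with 20.8 ± 2.23%, 21.5 ± 0.75% and 15.6 ± 2.25% in *zmp-2* libraries, 25.3 ± 4.63%, 19.6 ± 3.60% and 14.1 ± 1.77% in *zmp-1* and 20.7 ± 2.14%, 19.9 ± 3.74% and 16.9 ± 2.38% in WT. Other mean shares also moved the same way in both mutants. Among them *KCS3* was lower, at 4.25% in *zmp-2*, 4.22% in *zmp-1* and 5.51% in WT. *KCS19* was higher, at 2.92, 3.01 and 2.00% in the same order. The *KCS1* share rests on the contrasts on which the set was chosen and is a description. Of the 17 *KCS* genes outside the set 11 were tested, and edgeR called 0 in each of the 3 comparisons.

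**Figure D3:**
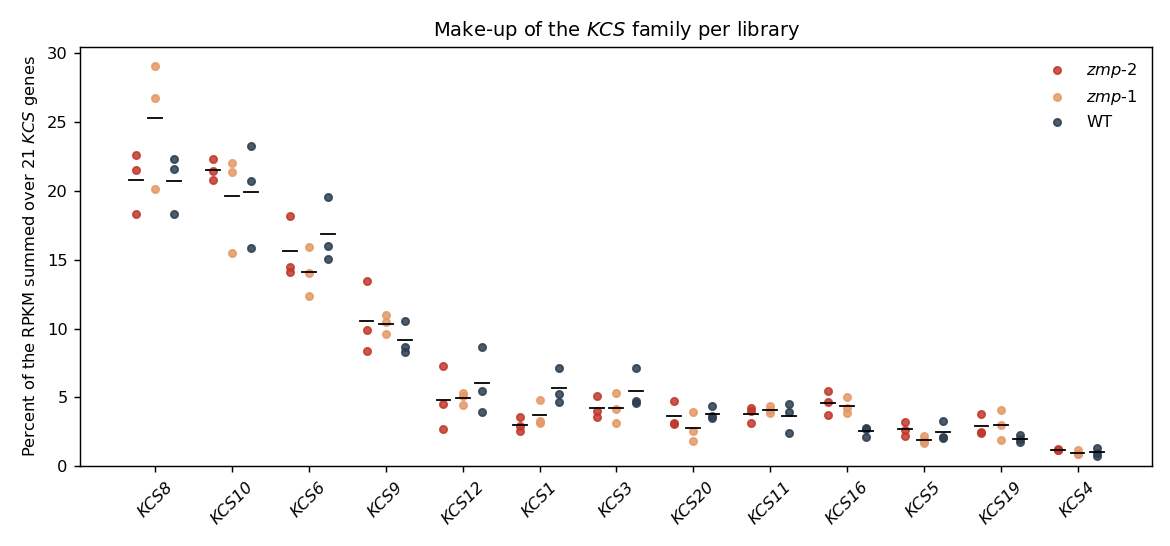
Share of the *KCS* family held by each gene (y axis, percent of the RPKM summed over the 21 *KCS* genes), with 1 point per library and a black line for the mean of each genotype, for genes with a WT mean of at least 1% (x axis, ordered by that mean). *KCS1* lies at 3.02% in *zmp-2* libraries, 3.75% in *zmp-1* and 5.69% in WT on average, and *KCS16* at 4.61, 4.40 and 2.54%.

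The 72 pathway genes outside the set were put in 6 lists by known function, with earlier results of these data known. Of these genes 54 were tested, and edgeR called 1 in *zmp-2* against WT, beside 0.177% of all genes. The gene called was *DCR*, an acyltransferase needed for cutin, the polyester of the cuticle. *DCR* had 29.3, 34.9 and 29.1 TMM-scaled RPM in *zmp-2* libraries, 25.9, 24.7 and 19.7 in *zmp-1*, and 16.9, 14.0 and 14.8 in WT. All 6 of its mutant libraries were above WT, as for 2.96% of all genes. *DCR* rose in *zmp-2* by a log2 fold change of 1.03 (SE 0.161, 2.05-fold, edgeR adjusted p = 0.03552). In *zmp-1* the value was 0.63 (SE 0.162) and did not pass (edgeR adjusted p = 0.322), and the difference between the mutants, 0.40, did not pass either (edgeR adjusted p = 0.9998). The call is close to the threshold, since it was lost without any 1 of 7 libraries (WT replicates 2 and 3, *zmp-1* replicates 1 and 2, and *zmp-2* replicates 1, 2 and 3, edgeR adjusted p from 0.05907 to 0.1543), with scaling by library size alone (0.052) and in a fit of the 6 libraries of *zmp-2* and WT (0.1013).

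Among 12 cutin genes 11 were tested, with 1 higher (0.0884% of all genes were) and 0 lower in *zmp-2* and 0 called in *zmp-1*. *CYP86A2*, a fatty acid hydroxylase for cutin monomers, had 29.9, 25.7 and 30.9 TMM-scaled RPM in *zmp-2* libraries, 29.1, 28.8 and 41.5 in *zmp-1* and 53.0, 43.6 and 53.6 in WT, so all mutant libraries were below WT, as for 2.31% of all genes. Its log2 fold changes of −0.79 and −0.60 did not pass edgeR's test (adjusted p = 0.1435 in *zmp-2*, adjusted p = 0.3592 in *zmp-1*), while DESeq2 called the value in *zmp-2* (adjusted p = 0.01051). Of 15 wax regulators 10 were tested and 0 called by edgeR. The one with the smallest p in *zmp-2* was *MYB96*, a MYB factor that activates wax genes under drought, at 16.1, 18.1 and 16.6 TMM-scaled RPM in *zmp-2* libraries, 37.2, 24.0 and 35.7 in *zmp-1*, and 26.3, 41.9 and 27.5 in WT. All *zmp-2* libraries of *MYB96* lay below those of *zmp-1*, as for 6.09% of all genes, and below those of WT, as for 7.52%. Its log2 fold changes in *zmp-2* were −0.92 against WT (edgeR adjusted p = 0.1574, DESeq2 0.01765) and −0.94 against *zmp-1* (edgeR adjusted p = 0.9444), and it was 0.02 in *zmp-1* against WT.

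The remaining lists had no call by edgeR in any comparison. Of 8 elongase partners and acyl supply genes 7 were tested, and *LACS2*, an acyl-CoA synthetase for cutin, had the smallest p in *zmp-2* (log2 fold change 0.52, edgeR adjusted p = 0.308). Of 9 further genes of wax synthesis and export 7 were tested, led by *CER26*, a relative of *CER2* that acts in leaves (0.67, edgeR adjusted p = 0.2019). Of 11 suberin genes 8 were tested, led by *FAR4*, an alcohol-forming reductase (−1.99, edgeR adjusted p = 0.268), which had 0.341 to 1.00 TMM-scaled RPM in *zmp-2*, 0.954 and 1.21 in WT replicates 1 and 3 and 5.84 in WT replicate 2. The 8 suberin genes had a median log2 fold change of −1.13 in *zmp-2* and −0.94 in *zmp-1*, but their sum over 11 genes was 21.4 to 26.4 TMM-scaled RPM in *zmp-2* libraries, 21.8 to 28.2 in *zmp-1*, 21.5 and 25.4 in WT replicates 1 and 3 and 61.3 in WT replicate 2. Without WT replicate 2 the medians of the 7 suberin genes then tested were 0.26 and 0.20. Over all 54 genes, an unadjusted p under 0.05 was met by 12 in *zmp-2* (6 higher, 6 lower), beside 12.1% of all genes, and by 4 in *zmp-1*, beside 9.16%. DESeq2 called 4 of the 54 in *zmp-2*, beside 1.20% of all genes, and 1 in *zmp-1*, beside 0.607%.

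**Figure D4:**
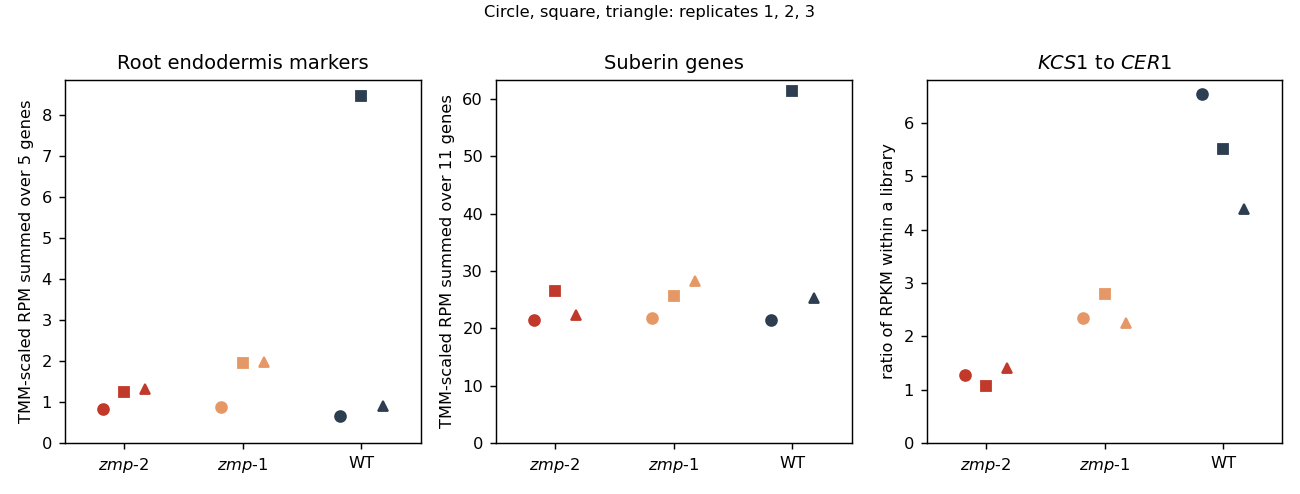
Root endodermis markers and suberin genes (left and middle, TMM-scaled RPM summed over 5 and 11 genes) and the ratio of *KCS1* to *CER1* by RPKM (right) in each library of *zmp-2*, *zmp-1* and WT, with the point's shape giving the replicate number. WT replicate 2 stands apart in the left and middle panels (8.46 and 61.3) and lies within the WT range in the right panel (5.52, between 4.38 and 6.54). The ratio was chosen after the values of both genes were seen.

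The genes whose pattern over the 9 libraries was most like that of *KCS1* were AT5G35320, *CYP86A2*, *YKT61*, *HVA22D* and AT4G30470. Likeness was the root mean square difference of log2(TMM-scaled RPM + 1) after each gene was centred on its mean, and it was 0.184, 0.184, 0.197, 0.198 and 0.199 for these 5 among 18108 genes. AT5G35320, the closest, had 4.37, 4.63 and 4.77 TMM-scaled RPM in *zmp-2* libraries, 4.61, 4.95 and 5.10 in *zmp-1* and 11.3, 6.82 and 14.2 in WT, with the same low value in WT replicate 2 as *KCS1*. *HVA22D*, of a family induced by abscisic acid and stress, had 3.16 to 3.45 in *zmp-2* libraries, 2.97 to 4.82 in *zmp-1* and 4.07 to 7.98 in WT. Among the members *KCS6* came nearest, at rank 1099 with 0.388, and *CER1* was among the least alike, at rank 17506 with 0.829.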

How the data were processed

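mRNA-seq libraries of *zmp-2*, *zmp-1* and WT (3 biological replicates each, by the labels) were analysed from counts per gene. The authors used Trim Galore for trimming and STAR 2.5.3a for alignment to TAIR10 (Araport11 annotation), and deposited unnormalized counts per gene. The strand counted is not given in the sources used here. Gene positions and sequences are from RefSeq TAIR10.1, whose nuclear chromosomes are those of TAIR10.

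The members and lists were chosen with earlier results of these data known. Genes were filtered with filterByExpr, scaled with TMM and tested with edgeR 4.0.16 (R 4.3.3) by quasi-likelihood F-tests, two-sided, in a fit of all 9 libraries with 1 coefficient per genotype, and p-values were adjusted by Benjamini-Hochberg over all 18109 genes tested at a threshold of 0.05. The procedure was also run on simulated counts with known changes. The share of changes recovered is not given here, so the missing calls are not weighed by it. The p-values judge each difference against the spread between these libraries only. Floors of 3 counts cover counting error only. Copies were searched with blastn 2.17.0, and coding sequences aligned with mafft 7.526.

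Genes named are the 10 members, *ZMP*, in each pathway list those called or else the smallest p in *zmp-2* against WT, and the 5 genes most like *KCS1*. AT1G04247, *ATR1*, AT4G07275, *KCS3*, *KCS8*, *KCS10*, *KCS19* and the within-library ratios were added after values were seen.

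Same-numbered libraries of *zmp-2* and WT deviated together (r = 0.277, 0.209 and 0.128 across genes), so the numbers, which come from the labels, were taken as pairing them. Those of *zmp-1* and WT (0.057, 0.039 and 0.046) and of *zmp-2* and *zmp-1* (0.143, −0.083 and −0.085) were not. The fit with 1 coefficient per genotype left this pairing out. The replicate block, run as an alternative, also spanned the *zmp-1* libraries. Alternatives were DESeq2 1.42.0, upper-quartile factors, library size only, no filter, at least 10 counts in every library, no organelle genes, separate fits of 6 libraries, the replicate block and each library left out.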

Additional observations from a re-analysis of the deposited data

How the results depend on the processing

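With DESeq2, without the filter on low counts, or without WT replicate 2, 1 member was called in *zmp-2* against WT, in each case *KCS1* (log2 fold change −1.10, −1.08 and −1.28), the gene on which the set was chosen, so that these calls are no independent evidence, and leaving out 1 library at a time gave 0 to 1 members. Over all 17 alternatives *KCS1* ranged over −1.28 to −0.92 in *zmp-2* and −0.89 to −0.54 in *zmp-1*, and *CER1* over 0.79 to 1.38 in *zmp-2*, never called. With edgeR and the replicate block *KCS1* was −1.06 in *zmp-2* and *DCR* 1.03 (adjusted p = 0.04661), and the block changed no call of a member or pathway gene. The pathway genes called in *zmp-2* were 4 with DESeq2, 0 with library size only, 0 in separate fits and 0 to 1 with 1 library left out, and DESeq2 called 1 in *zmp-1*. In the fit of all 9 libraries *ZMP* was −1.35 in *zmp-1* (edgeR adjusted p = 0.1553, not called) and −2.35 in *zmp-2* (edgeR adjusted p = 0.01012, called). For each allele 16 of 17 alternatives kept that outcome. The exceptions were DESeq2 in *zmp-1* (−1.37, adjusted p = 0.01528) and separate fits in *zmp-2* (−2.35, edgeR adjusted p = 0.05578). Between *zmp-2* and *zmp-1* the sign turned when 1 library was left out for *KCS6* (−0.110 to 0.240), *KCS20* (−0.0169 to 0.741) and *CER10* (−0.0248 to 0.110). Over all genes *zmp-2* against WT gave 32 calls, with 218 by DESeq2, 130 without the filter, 20 by library size only, 1 in separate fits and 5 to 110 with 1 library left out. Library size only moved the median of all genes to −0.10 in *zmp-2* and −0.12 in *zmp-1*. The causes were not tested. Depth limits *KCS2*, *CER4* and *WSD1*, which had 15, 19 and 29 counts in all.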

Other observations

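*KCS3*, a member of the *KCS* family outside the set that was named after its values were seen, stood 23rd of 18108 genes in likeness to *KCS1* (root mean square difference 0.256). It had 19.2, 21.3 and 17.4 TMM-scaled RPM in *zmp-2* libraries, 22.5, 14.7 and 24.2 in *zmp-1*, and 27.5, 21.6 and 35.4 in WT. Its *zmp-2* libraries were all below WT, as for 7.52% of all genes, with 21.28 in *zmp-2* replicate 2 against 21.58 in WT replicate 2. The log2 fold change of −0.54 in *zmp-2* did not pass edgeR's test (adjusted p = 0.3522), and the *zmp-1* libraries overlapped with WT.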
